A study of Homo sapiens with 9 samples.

Results

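Replacement histone variants are histones whose genes end in ordinary polyadenylated mRNA and are read throughout the cell cycle. They were followed here as a set of 7 listed genes, H2AZ1, H2AZ2, H2AX, MACROH2A1, H3-3A, H3-3B and H1-10. Members were the probe sets whose platform annotation names 1 of these genes and no other member. This gave 19 of 54613 probe sets and 6 of 19775 named genes, because every probe set that names H3-3B also names H3-3A. The 8 probe sets that name both H3.3 genes are described apart and were assigned to neither.

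HEK293, an established human line of embryonic kidney origin, was transiently transfected with human surfactant protein C, which type II cells of the lung alveolus make as a precursor. Ex4 cells received the form without exon 4, LQ cells the form with the L188Q substitution, and WT cells the wild-type protein, which is the control here. Each group had 3 arrays. All groups therefore carry a transfected surfactant gene, no untransfected group was analysed here, and the labels give no transfection efficiency, time after transfection or separate cultures. Values are the deposited MAS5 intensities, a summary of each probe set's signal on a linear scale.

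Histone variants take the place of the bulk histones, which are made in S phase from genes whose mRNA ends in a stem-loop and has no poly(A) tail. H2AZ1 and H2AZ2 encode the 2 nearly identical H2A.Z proteins, which sit beside promoters. H2AX encodes the H2A form that is phosphorylated around DNA breaks, and its mRNA is known in a stem-loop form and in a polyadenylated form. MACROH2A1 encodes an H2A with a large added macrodomain that is enriched on the inactive X chromosome. H3-3A and H3-3B encode the same protein, H3.3, which is placed in chromatin outside replication, and H1-10 encodes a linker histone.

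The promoters of both H2A.Z genes, of H2AX and of H3-3B are printed, since the results below turn on probe sets of H2A.Z and H3.3, and H2AX is the member with both mRNA forms. They come from RefSeq (GRCh38.p14) as the 250 bases before the annotated start, read 5′ to 3′ on the gene's strand. Capitals mark CCAAT or its reverse complement ATTGG, the box bound by NF-Y, and TATAAA or its reverse complement, the TATA element. H2AZ1 lies at chr4:99950276-99950525, H2AZ2 at chr7:44848088-44848337, H2AX at chr11:119095466-119095715 and H3-3B at chr17:75779780-75780029, all on the minus strand.
H2AZ1: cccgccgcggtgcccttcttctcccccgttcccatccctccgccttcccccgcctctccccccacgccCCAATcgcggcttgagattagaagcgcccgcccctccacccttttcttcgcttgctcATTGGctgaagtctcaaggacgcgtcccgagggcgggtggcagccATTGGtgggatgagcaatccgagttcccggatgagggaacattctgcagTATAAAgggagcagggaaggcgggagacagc
H2AZ2: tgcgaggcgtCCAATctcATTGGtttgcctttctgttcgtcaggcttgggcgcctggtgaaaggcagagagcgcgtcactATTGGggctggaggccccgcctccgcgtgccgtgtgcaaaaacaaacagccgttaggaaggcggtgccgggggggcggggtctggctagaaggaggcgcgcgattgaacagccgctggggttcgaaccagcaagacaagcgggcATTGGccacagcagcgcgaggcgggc
H2AX: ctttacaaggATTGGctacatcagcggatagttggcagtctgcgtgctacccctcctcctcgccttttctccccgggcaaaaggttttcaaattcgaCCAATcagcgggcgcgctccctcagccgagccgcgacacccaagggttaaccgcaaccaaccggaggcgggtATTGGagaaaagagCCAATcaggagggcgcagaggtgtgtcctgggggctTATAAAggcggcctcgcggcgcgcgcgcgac
H3-3B: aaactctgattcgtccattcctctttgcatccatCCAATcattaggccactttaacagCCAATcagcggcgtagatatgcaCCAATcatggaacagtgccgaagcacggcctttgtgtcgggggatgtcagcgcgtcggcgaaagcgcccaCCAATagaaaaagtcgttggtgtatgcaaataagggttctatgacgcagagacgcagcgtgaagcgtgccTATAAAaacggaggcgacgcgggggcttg

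H2AZ1 held 3 CCAAT boxes and 1 TATA element, H2AX and H3-3B 4 boxes and 1 TATA element each, and H2AZ2 4 boxes and none of the TATA letters. Among 35116 such windows in the table, 2.93% held at least 3 boxes, 0.874% at least 4, and 10.7% a TATA element. The TATA letters began 31 bases before the start in H2AZ1 and H2AX and 29 bases before it in H3-3B. The H1-10 window held the TATA letters 31 bases before its start and no CCAAT box. The 2 windows of MACROH2A1 held 0 and 2 boxes, and the 4 windows of H3-3A held 0 or 1. A match is a description of these letters and says nothing about binding.

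Array medians were 316.1 to 434.3 in Ex4, 303.9 to 371.8 in LQ and 506.4 to 524.4 in WT, although the deposited scaling gave all arrays nearly the same trimmed mean (both mutants against WT, two-sided exact permutation p = 0.012, the smallest that 84 assignments allow). Over all tested probe sets the median log2 change in Ex4 was -0.12 and in LQ -0.15, while over the brightest 10% of them it was 0.11 and 0.12. Ex4 replicate 1 correlated on average at 0.906 with the other Ex4 arrays, 0.911 with WT and 0.927 with LQ. Ex4 replicates 2 and 3 had 0.948 and 0.941 with LQ, but 0.871 and 0.864 with WT. WT replicate 1 correlated at 0.892 with WT and 0.907 with LQ. Ex4 replicate 1 and WT replicate 1 stand apart, so some member results are also given with 1 or the other left out. GAPDH signal at the 3′ end over that at the 5′ end, which reflects RNA integrity, averaged 1.12 ± 0.14 in Ex4, 1.07 ± 0.016 in LQ and 1.31 ± 0.11 in WT (SD, n = 3; both mutants against WT, exact permutation p = 0.024). The same ratio for ACTB ran the other way, at 1.35 ± 0.18 in Ex4, 1.18 ± 0.041 in LQ and 1.13 ± 0.12 in WT (SD, n = 3; exact permutation p = 0.226). The part of these array differences in the results was not tested. SFTPC, the transfected gene, read at least 19159.6 on 3 of its 5 probe sets on all 9 arrays. NEFL, NEFM, INA, PAX2 and LHX1, neuronal and kidney genes known in this line, lay above the array median on all 9 arrays, although PAX2 fell in LQ (log2 change -2.04, adjusted p = 0.025). Of the markers of other cells, 2 of 5 for alveolar type II cells (LAMP3 and SFTPB), 1 of 4 for blood and 1 of 5 for fibroblasts did so. The summed alveolar signal was 3645.7 to 4105.1 in Ex4, 3957.5 to 5029.3 in LQ and 4045.6 to 5784.4 in WT, and the summed blood signal 1069.2 to 1212.4 in Ex4, 979.5 to 1150.1 in LQ and 1819.9 to 2484.7 in WT. The summed fibroblast signal was 4626.3 to 5850.5 in Ex4, 3120.6 to 4277 in LQ and 6480.3 to 7800.8 in WT.

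None of the 16 tested member probe sets passed in either mutant. The other 3 were too dim to be tested: 1 of H2AX and 2 of MACROH2A1. In Ex4 against WT, 0 of 16 passed by limma after Benjamini-Hochberg adjustment over all tested probe sets against a background of 0.0122% called, and 2 had an unadjusted p under 0.05, against 24.9% of all tested probe sets. In LQ against WT, 0 of 16 passed, against a background of 6.81% called (3.09% higher, 3.72% lower), and 2 had an unadjusted p under 0.05, against 28.9%. In Ex4 1 member probe set lay wholly above WT and 0 below, against 7.48% above, 15% below and 22.5% in either direction among all tested. In LQ 2 lay wholly above WT and 3 below, against 13.1% above, 24.2% below and 37.2% in either direction. The members' median log2 change was -0.12 for Ex4 and -0.07 for LQ, close to the medians of all tested probe sets. Their values ran between -0.71 and 0.48 in Ex4 and between -0.60 and 0.58 in LQ.

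**Figure D1:**
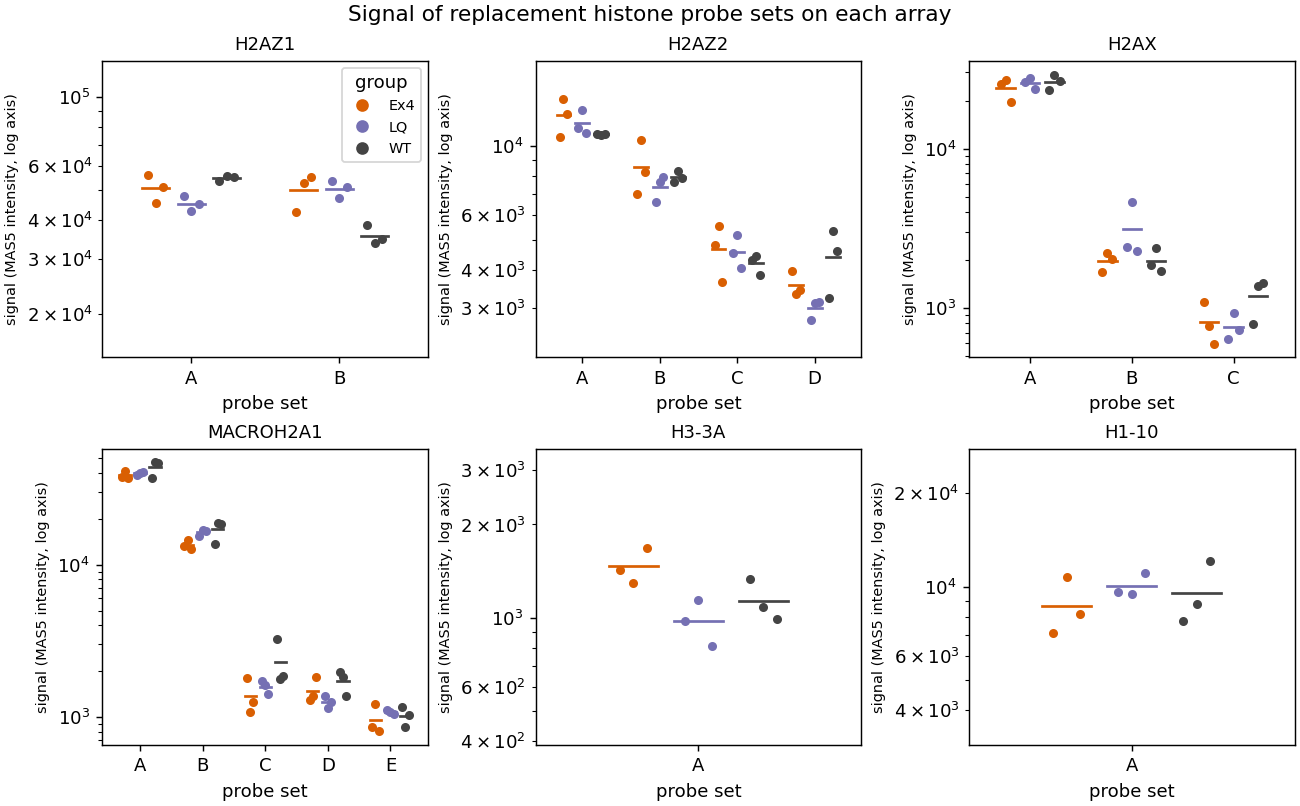
Signal (MAS5 intensity, log axis) of each tested probe set of the 6 replacement histone genes, with 1 point per array, a bar for the group mean, and Ex4, LQ and WT from left to right at each letter. Probe set B of H2AZ1 is the one on which all 6 mutant arrays lie above all 3 WT arrays.

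H2AZ1 gave opposite readings on its 2 probe sets, named A and B here from the brighter to the dimmer, as for every gene. On B (200853_at) the signal was 42534.4, 52873.2 and 55193.6 on the Ex4 arrays, 53442.5, 47177.8 and 51240.9 on the LQ arrays, and 38520.0, 33763.6 and 34962.0 on the WT arrays. All 6 mutant arrays were above all 3 WT arrays. Among the brightest 10% of tested probe sets, where B lies, 589 of 3276 lay wholly above WT in Ex4 and 1013 in LQ. The log2 change was 0.48 ± 0.14 for Ex4 (SE, adjusted p = 0.093) and 0.50 ± 0.14 for LQ (adjusted p = 0.054), or 1.4- and 1.42-fold, neither past the threshold of 0.05. On A (213911_s_at) the signal was 56047.9, 45390.7 and 51140.6 on the Ex4 arrays, 48090.3, 42750.4 and 45052.6 on the LQ arrays, and 53787.8, 55665.6 and 55042.2 on the WT arrays. The LQ arrays were all below the WT arrays on A, while Ex4 overlapped WT. Its log2 change was -0.11 ± 0.13 for Ex4 (adjusted p = 0.62) and -0.28 ± 0.13 for LQ (adjusted p = 0.19).

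The call on H2AZ1 B depended on single arrays and on the scaling. Without Ex4 replicate 1 its log2 change was 0.60 for Ex4 and 0.50 for LQ (adjusted p = 0.024 and 0.031), and without WT replicate 1 it was 0.54 and 0.56 (adjusted p = 0.037 and 0.027). Under median centring, which sets the median of every array to the same value, it was 0.97 and 1.08 (adjusted p = 0.017 and 0.0053). After quantile normalization it was 0.47 and 0.51 (adjusted p = 0.11 and 0.053). On A, median centring turned the sign for both mutants, to 0.38 and 0.31 (adjusted p = 0.17 and 0.24). Calls gained in such fits, here and below, stand beside more calls over all 32768 tested probe sets. The main fit had 4 in Ex4 and 2231 in LQ. Without Ex4 replicate 1 there were 4433 and 4406, and without WT replicate 1 3679 and 4993. With median centring there were 5106 and 8452, and with array weights 5287 and 8580.

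A single scaling factor per array leaves the distance between the H2AZ1 probe sets nearly as it was, while quantile normalization can alter it. This distance was computed after the values were seen and is given without a test. The log2 value of B minus that of A was -0.40, 0.22 and 0.11 on the Ex4 arrays, 0.15, 0.14 and 0.19 on the LQ arrays, and -0.48, -0.72 and -0.65 on the WT arrays. Every mutant array was above every WT array, and Ex4 replicate 1 was nearest to WT. The mean distance was higher by 0.60 in Ex4 and by 0.78 in LQ than in WT, and neither probe set passed in either mutant. Which transcript ends or copies each of them reads was not analysed here.

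H2AZ2, the paralogue of H2AZ1, did not pass on any of its 4 probe sets, A to D. On A (202487_s_at) the signal was 10722.9, 14240.2 and 12713.2 on the Ex4 arrays, 11483.8, 13058.8 and 10991.7 on the LQ arrays, and 10982.4, 10896.1 and 10971.5 on the WT arrays. The WT arrays lay close together, and each LQ array was slightly above them. The log2 change was 0.19 ± 0.15 for Ex4 and 0.11 ± 0.15 for LQ, with 95% intervals of -0.14 to 0.52 and -0.22 to 0.44. Probe sets B and C ran from -0.11 to 0.14 in the 2 mutants. On D (227085_at), the dimmest, the LQ signal of 2759.1, 3117.3 and 3153.7 was below the WT signal of 3252.3, 5322.1 and 4584.2, with a log2 change of -0.51 ± 0.20 (adjusted p = 0.12). Without WT replicate 1 this was -0.71 (adjusted p = 0.022), and with median centring 0.07. Median centring also gave calls in LQ on A, at 0.69, and on C, at 0.71 (adjusted p = 0.04 and 0.041).

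H2AX did not pass on its 3 tested probe sets, A to C. On A (205436_s_at), the brightest, the signal was 25383.7, 27051.7 and 19523.5 on the Ex4 arrays, 26308.4, 27490.0 and 23690.3 on the LQ arrays, and 23352.0, 29103.3 and 26453.5 on the WT arrays. The 3 groups overlapped, with log2 changes of -0.14 ± 0.16 for Ex4 and -0.02 ± 0.16 for LQ. The 95% interval for LQ was -0.37 to 0.32. On B (212525_s_at) the signal was 1681.8, 2201.9 and 2017.1 in Ex4, 2405.2, 4639.7 and 2273.6 in LQ, and 1850.3, 2377.5 and 1700.8 in WT. LQ replicate 2 alone was far above the others, and the LQ change of 0.58 ± 0.27 (adjusted p = 0.18) was 0.26 without it and 1.17 with median centring (adjusted p = 0.016). On C (213344_s_at) the changes were -0.54 ± 0.32 for Ex4 and -0.60 ± 0.32 for LQ (adjusted p = 0.31 and 0.23), where WT replicate 1 lay inside the range of both mutants.

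The fourth H2AX probe set, D (212524_x_at), was below the array median on all 6 mutant arrays and 2 of the 3 WT arrays and was not tested. It read 329.5, 43.0 and 148.1 in Ex4, 79.6, 56.3 and 214.4 in LQ, and 404.4, 500.3 and 669.1 in WT. The mutant arrays were all below the WT arrays there, at signals whose size is not well measured. The x in its identifier marks probe sets with probes that may read other sequences too.

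MACROH2A1 had 7 probe sets, A to G, and 5 were tested. On A (207168_s_at) the signal was 37921.4, 41556.1 and 36955.8 in Ex4, 39101.2, 40389.5 and 40504.9 in LQ, and 37457.4, 47285.1 and 46813.9 in WT. Here WT replicate 1 sat with the mutants, and the other 2 WT arrays were above them. The log2 changes were -0.17 ± 0.14 for Ex4 and -0.12 ± 0.14 for LQ (adjusted p = 0.46 and 0.57). On B (214501_s_at) the signal was 13356.9, 14470.1 and 12776.3 in Ex4, 15493.9, 16958.1 and 16744.2 in LQ, and 13670.2, 18932.4 and 18563.2 in WT. Its Ex4 change was -0.32 ± 0.16 (adjusted p = 0.23), and without WT replicate 1 it was -0.47 (adjusted p = 0.041).

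The largest fitted change among the members was on MACROH2A1 C (226840_at), with 1788.8, 1074.5 and 1253.9 in Ex4, 1725.5, 1613.4 and 1403.5 in LQ, and 3260.5, 1767.0 and 1847.0 in WT. WT replicate 1 was far above every other array. The log2 change was -0.71 ± 0.28 for Ex4 and -0.48 ± 0.28 for LQ (adjusted p = 0.15 and 0.27), and the smallest sizes over the fits without 1 array were -0.43 and -0.20. Probe sets D and E ran from -0.43 to 0.08 in the 2 mutants, and none passed. F and G stayed below the array median on all 9 arrays, at 4.8 to 353.8, and were not tested.

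H3.3 was read by 1 probe set that names H3-3A alone and by the 8 that name both genes. On the first (213826_s_at) the signal was 1426.2, 1296.2 and 1681.6 in Ex4, 975.4, 1139.8 and 814.0 in LQ, and 1333.9, 1085.1 and 992.9 in WT. It was higher in each Ex4 array than in any LQ array, and both overlapped WT. The log2 change was 0.37 ± 0.24 for Ex4 and -0.22 ± 0.24 for LQ (adjusted p = 0.35 and 0.57). Median centring gave 0.86 for Ex4 (adjusted p = 0.042) and turned the LQ value to 0.36 (adjusted p = 0.33).

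The 8 probe sets shared by H3-3A and H3-3B, called shared A to H, differed in direction. They fall into 4 that also name H3P6, an H3.3 pseudogene, and 4 that also name MIR4738, a microRNA gene beside H3-3B in RefSeq. Of the MIR4738 sets, shared C (211997_x_at) has as its target the RefSeq transcript of H3-3B. Its identifier carries the x, like those of shared A, B and F, so this set may read other sequences too. It read 65437.7, 59512.7 and 70496.5 in Ex4, 69481.6, 62009.1 and 70446.4 in LQ, and 51030.6, 46285.9 and 45380.5 in WT. Shared G (209069_s_at), also a MIR4738 set, read 35077.0, 36999.5 and 44572.9 in Ex4, 42956.8, 38258.9 and 44963.3 in LQ, and 27060.6, 28867.9 and 27807.4 in WT. On both, all 6 mutant arrays were above all WT arrays.

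In LQ, shared C and G rose, by log2 changes of 0.50 ± 0.13 and 0.59 ± 0.14 (SE, adjusted p = 0.045 and 0.036), or 1.41- and 1.5-fold. Both are among the brightest 10% of tested probe sets. Of those 3276, 327 were called higher in LQ and 1013 lay wholly above WT, beside 3.09% and 13.1% of all tested. In Ex4 the changes of C and G were 0.45 ± 0.13 and 0.47 ± 0.14 (adjusted p = 0.091 and 0.093). In Ex4, C passed without WT replicate 1, at 0.50 (adjusted p = 0.032), and G without Ex4 replicate 1, at 0.54 (adjusted p = 0.04). Both passed in Ex4 with array weights, at 0.49 and 0.51, and with median centring, at 0.94 and 0.96 (adjusted p = 0.014 and 0.017). The LQ calls were both lost without any 1 of the LQ arrays or of WT replicates 2 and 3, at changes of 0.47 to 0.56 for C and 0.54 to 0.66 for G. They were also lost with no filter on low values and without the variance trend. They were kept after quantile normalization, at 0.61 and 0.57, and with median centring, at 1.08 and 1.17. The other 2 MIR4738 sets did not pass, with -0.17 ± 0.15 on shared D and -0.01 ± 0.15 on shared H in LQ.

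The 4 H3P6 sets had LQ changes of -0.40 to -0.08, and none passed. Shared A (208755_x_at) read 75824.5, 68291.2 and 67674.1 in Ex4, 67259.4, 59099.7 and 63661.9 in LQ, and 80446.9, 86459.2 and 82867.8 in WT, below WT on every mutant array. Its log2 change was -0.24 ± 0.13 for Ex4 and -0.40 ± 0.13 for LQ (adjusted p = 0.26 and 0.072), and median centring turned it to 0.25 and 0.19. In LQ it passed as lower without WT replicate 1 and with array weights, both at -0.42 (adjusted p = 0.043 and 0.015). Within an array, shared C minus shared A was -0.21, -0.20 and 0.06 in Ex4, 0.05, 0.07 and 0.15 in LQ, and -0.66, -0.90 and -0.87 in WT. The mean of the 4 MIR4738 sets minus that of the 4 H3P6 sets was -1.08 ± 0.07 in Ex4, -0.96 ± 0.04 in LQ and -1.42 ± 0.05 in WT (SD, n = 3), which is higher by 0.33 in Ex4 and 0.46 in LQ than in WT. On both measures every mutant array was above every WT array, while Ex4 and LQ overlapped on the first. The measures were chosen after the values were seen and carry no test.

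**Figure D2:**
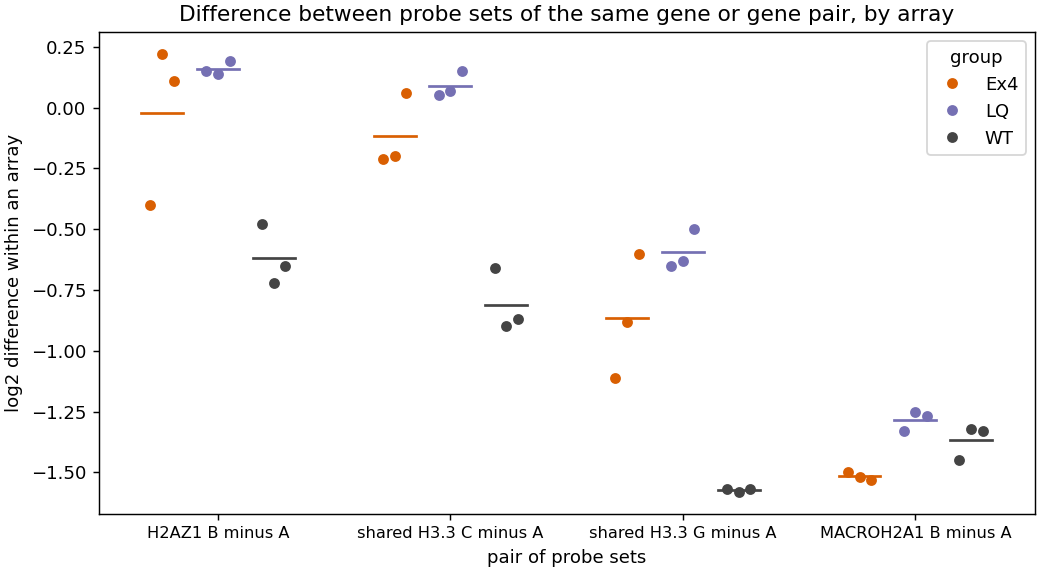
Log2 difference between probe sets of the same gene or gene pair within each array, with 1 point per array, a bar for the group mean, and Ex4, LQ and WT from left to right. For H2AZ1 B minus A and for shared H3.3 C and G minus A every mutant array lies above every WT array, while for MACROH2A1 B minus A the mutant means of -1.52 and -1.29 lie on either side of the WT mean of -1.37.

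H1-10, the linker histone, had 1 probe set (204805_s_at). It read 7101.4, 10786.5 and 8187.0 in Ex4, 9607.7, 9457.1 and 11054.4 in LQ, and 7725.4, 8824.2 and 12143.4 in WT. The groups overlapped, with log2 changes of -0.13 ± 0.20 for Ex4 and 0.09 ± 0.20 for LQ and 95% intervals of -0.58 to 0.31 and -0.35 to 0.53. By group mean its order was LQ at 10039.7, WT at 9564.3 and Ex4 at 8691.6, and no neighbours in that order differed beyond their spread.

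**Figure D3:**
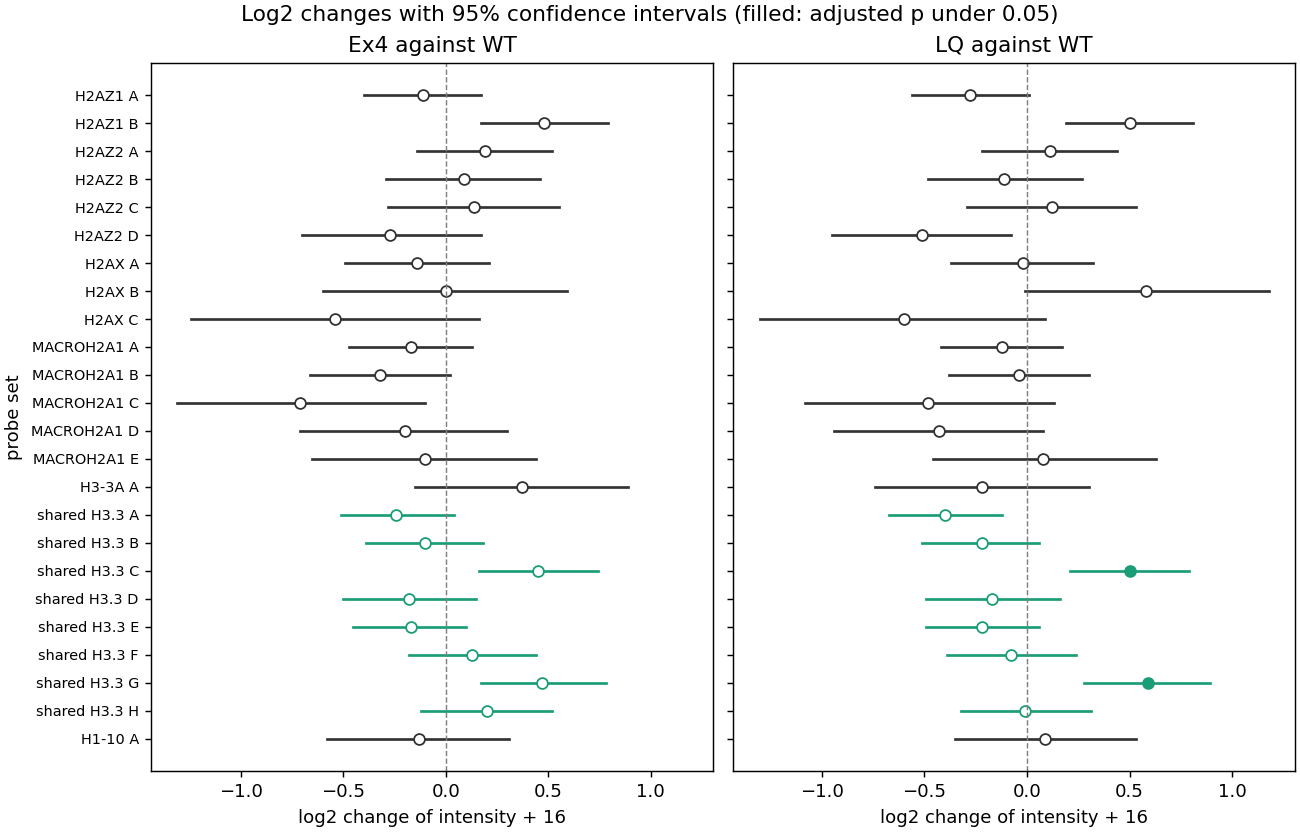
Log2 change of intensity + 16 with its 95% confidence interval for the 16 tested member probe sets (black) and the 8 shared H3.3 probe sets (green), Ex4 against WT on the left and LQ against WT on the right. Filled points, shared H3.3 C and G in LQ, have an adjusted p under 0.05.

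LQ against Ex4 asked whether the 2 mutants differ from each other. None of the 16 member probe sets passed by limma, against a background of 0.0061% called, and 1 had an unadjusted p under 0.05, against 4.1%. LQ lay wholly above Ex4 on 2 member probe sets and below on 2, against 5.62% above and 6.34% below (12% in either direction). The 1 with the small p was H3-3A, with a log2 change of -0.59 ± 0.24 and a 95% interval of -1.10 to -0.07 (unadjusted p = 0.03, adjusted p = 1). H2AX B had 0.58 ± 0.27, and MACROH2A1 B 0.28 ± 0.16, with LQ arrays all above Ex4 arrays on both. H2AZ1 B had 0.02, with an interval of -0.29 to 0.33. Neither mutant was therefore shown to differ from the other on any member, and intervals of this width do not show that they act alike.

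Likeness was measured as the root mean square difference, over the 9 arrays, between the centred log2 values of each member's brightest probe set and those of 14017 other genes. PFKP was nearest to H2AX, at 0.048 where H2AX itself varied by 0.16 about its mean. EZR, TGIF1 and RAB11A were nearest to MACROH2A1, at 0.059, 0.06 and 0.062. OSBPL10 was nearest to H2AZ1 at 0.064, TSPYL4 to H2AZ2 at 0.068 and ENTREP3 to H1-10 at 0.072. API5 was nearest to H3-3A, at 0.12 where H3-3A varied by 0.3. These are descriptions over few arrays, and small values come easily for genes that vary little.

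Some genes of the machinery that places and removes the variants passed in LQ. Of the 17 tested genes of H2A.Z exchange, 3 rose and 1 fell in LQ, against a background of 7.32% of genes called on their brightest probe set, 3.69% higher and 3.63% lower. ING3, a subunit of the TIP60 acetyltransferase complex, had a log2 change of 1.40 ± 0.16 (adjusted p = 0.0061), EPC1, another of its subunits, 0.86 ± 0.17 (adjusted p = 0.026), and ACTR6, an actin-related subunit of the SRCAP remodeller, 1.13 ± 0.24 (adjusted p = 0.03). SRCAP, the remodeller's ATPase, fell by 1.04 ± 0.28 on the log2 scale (adjusted p = 0.048) and was named after its value was seen. The median over the list was 0.24, beside -0.09 over all genes. Of 8 genes of H3.3 deposition 2 rose, ASF1A, a histone chaperone, at 0.83 ± 0.16 (adjusted p = 0.024) and DEK at 1.15 ± 0.30 (adjusted p = 0.044). HIRA, the scaffold of the H3.3 chaperone complex, had 0.59 ± 0.18 (adjusted p = 0.068), and the list's median was 0.46.

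Of 14 genes that phosphorylate, read or exchange H2AX, only PPM1D, a phosphatase that removes the damage mark, passed in LQ, at 0.71 ± 0.16 (adjusted p = 0.033). The background for the lists in this paragraph was 7.32% of genes called, 3.69% higher and 3.63% lower, and 1 of 14 is near it. MDC1, the reader of phosphorylated H2AX, had 0.62 ± 0.17 and SUPT16H, of the FACT chaperone, 0.50 ± 0.16 (adjusted p = 0.052 and 0.067). Among 12 general and replication-coupled chaperones 1 passed, also near the background. It was NASP, an H3 and H4 chaperone, which rose at 0.82 ± 0.20 (adjusted p = 0.04). MCM2 had 0.59 and IPO4, an importin for H3 and H4, -0.50 (adjusted p = 0.066 and 0.11). Of 4 genes linked to macroH2A, PARG, which removes poly(ADP-ribose), rose at 2.15 ± 0.32 and HELLS, a remodeller, at 0.88 ± 0.24 (adjusted p = 0.015 and 0.049), while CHD1L had 0.51 (adjusted p = 0.079). The other replacement variants were led by H2AJ at -0.56 and MACROH2A2 at 0.32, and none of the 3 tested passed (CENPA, the centromeric H3, at 0.07). H2AJ passed at -0.89 without WT replicate 1 and at -0.79 with array weights (adjusted p = 0.014 and 0.013), and had 0.02 with median centring. Of 12 proliferation genes 4 rose, led by MCM3 at 0.82, AURKA at 0.80 and CDK1 at 1.43 (adjusted p = 0.019, 0.023 and 0.038), and MKI67 was the fourth. Of the 12, 8 had a change above 0. The list's median was 0.14 and its lowest value -0.34, beside a median of -0.09 over all genes. Most of these genes are bright, and over the brightest 10% of tested probe sets the median was 0.12. Of those 3276, 327 were called higher.

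In Ex4 none of these lists had a gene past the threshold by limma, while 0 of 3, 5 of 17, 4 of 8, 4 of 14, 3 of 12, 2 of 4 and 4 of 12 genes had an unadjusted p under 0.05 in the order of other variants, H2A.Z exchange, H3.3 deposition, H2AX, chaperones, macroH2A and proliferation. Of all 14018 genes 0 passed in Ex4 and 27.2% had an unadjusted p under 0.05. The LQ calls depended on single arrays and on processing. Without the variance trend the H3.3 deposition, H2AX, chaperone and proliferation lists had 0 calls and H2A.Z exchange and macroH2A 1 each. Quantile normalization gave 0 for H2AX and chaperones, 1 for H3.3 deposition and macroH2A, 2 for proliferation and 3 for H2A.Z exchange. Without any 1 LQ array the H3.3 deposition, H2AX, chaperone, macroH2A and proliferation lists had 0 calls, and H2A.Z exchange 0 or 1; without WT replicate 2 or 3 the same lists again had 0 and H2A.Z exchange 1. With median centring 8452 of all 32768 tested probe sets were called in LQ, 7934 of them higher. In that setting H2A.Z exchange had 8 of 17, H3.3 deposition 6 of 8 and H2AX 10 of 14, all higher, so SRCAP was not called there. Nor was SRCAP called after quantile normalization, with no filter, without the variance trend or with only the arrays compared. Its call was also lost without Ex4 replicate 2 or 3, any 1 LQ array, or WT replicate 2 or 3.

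Replication-dependent histones had a wider range of changes than the replacement variants on the same arrays. Of 32 tested genes 10 fell and 1 rose in LQ, against 3.63% of all genes called lower and 3.69% higher. The list's median log2 change was -0.86 and its range -5.42 to 1.22. All genes ranged over -5.42 to 3.02 and the members over -0.60 to 0.58. In Ex4 none of the 32 passed, and 17 had an unadjusted p under 0.05, where 27.2% of all genes had one. The list's median there was -0.59 and its range -4.78 to 0.99, beside the members' -0.71 to 0.48. H2BC6 read 20170.6, 2194.7 and 2957.5 in Ex4, 2447.0, 2366.4 and 2127.8 in LQ, and 13739.7, 43055.1 and 44919.0 in WT, so Ex4 replicate 1 lay within the WT range. H2AC6, the gene that rose, had a log2 change of 1.22 ± 0.19 (adjusted p = 0.015), and H3C11 had -3.70 ± 0.66 (adjusted p = 0.021). The 11 calls became 2 without the variance trend and 7 after quantile normalization. They became 0 without any 1 LQ array or WT replicate 2, and 1 without WT replicate 3. Copies of these genes share sequence, so single copies are uncertain. The ranges cover 32 genes, some of them dim, and 16 probe sets. A range widens with more values and with noise at low signal. Whether the classes differ was not tested.

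**Figure D4:**
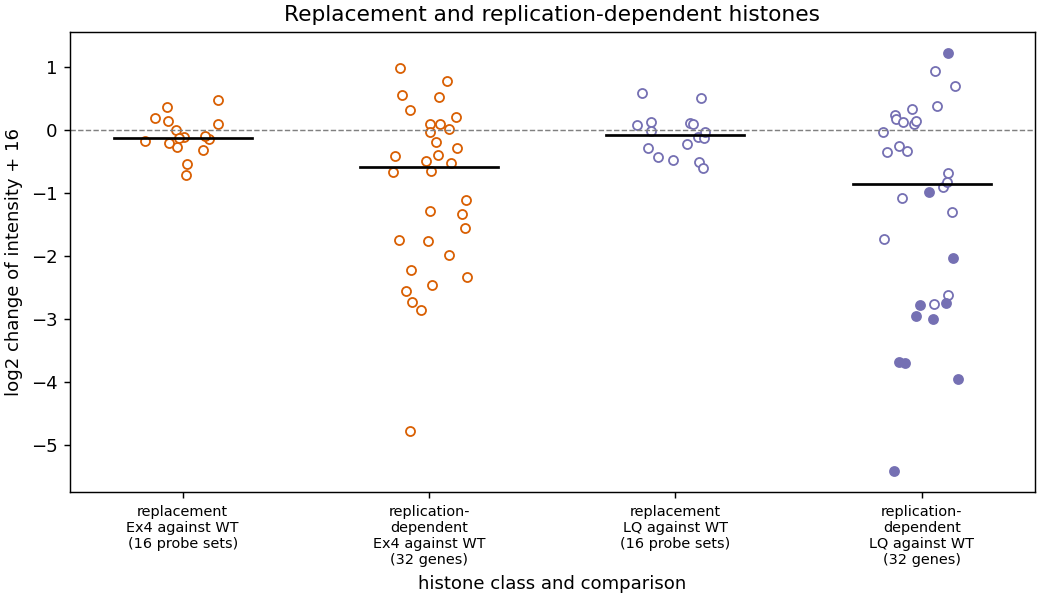
Log2 change of intensity + 16 for the 16 tested replacement histone probe sets and the 32 tested replication-dependent histone genes (brightest probe set each), in Ex4 and in LQ against WT, with 1 point per probe set or gene, filled where the adjusted p is under 0.05, and a line at the median. The replacement histones stay between -0.71 and 0.58, while the replication-dependent genes reach -4.78 in Ex4 and -5.42 in LQ.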

How the data were processed

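The deposited value for each probe set on an array is its intensity, on a linear scale. The authors computed it by MAS5, as the submitters' processing notes name it (version not given in the sources used here). Of 54675 probe sets, 62 are controls. Of the others, 41091 carry 1 gene symbol, 1801 several and 11721 none in the platform annotation; symbols were updated by gene identifier through RefSeq, and 54 kept the annotation's. 

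The test scale was log2(intensity + 16), on which changes of dim probe sets come out too small. A mean below percentile 40 removed a probe set, leaving 32768 probe sets and 14018 genes. All 9 arrays entered a single limma fit (limma 3.58.1 in R 4.3.3) that lets the variance depend on the mean. Tests were two-sided, p-values were adjusted by Benjamini-Hochberg for every contrast separately, and 0.05 was the threshold. A gene in a list was represented by its brightest probe set. The labels do not say that arrays were separate cultures, which means that the p-values reflect array-to-array spread that may be technical. The number of arrays limits the precision. No 2 arrays were identical. Each list gave its 3 genes with the smallest adjusted p in LQ, or its 2 largest changes where none passed. Members and lists were chosen with earlier results of these data known. Alternatives were other pseudocounts, scalings, filters, no variance trend, only the arrays compared, array weights, the replicate number as a block and each array left out.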

Additional observations from a re-analysis of the deposited data

How the results depend on the processing

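The count of member probe sets called stayed at 0 in LQ against Ex4 under every alternative. In Ex4 against WT it was 2 with median centring and 1 with array weights, and 0 to 2 over the fits without 1 array. In LQ against WT it was 4 with median centring, 2 with array weights, 1 with a filter at percentile 60 and 1 with only the arrays compared, and 0 to 2 without 1 array. Over all probe sets the Ex4 count of 4 became 10 after quantile normalization, 5106 with median centring (4824 higher, 282 lower), 2 with only the arrays compared, 5287 with array weights and 2 to 4433 without 1 array. The LQ count of 2231 became 1154, 8452 (7934 higher, 518 lower), 4035 and 8580 in the same settings, 442 without the variance trend and 8 to 4993 without 1 array. The count in LQ against Ex4 was 2, and 1 without the variance trend and 2 to 3 without 1 array. Median centring moved the median log2 change of all probe sets to 0.37 and 0.44. As a replicate block the shared number gave 4 calls in Ex4 and 2215 in LQ and changed no member's call, with 2 chaperone and 1 macroH2A-linked genes called in LQ; same-numbered arrays had correlated deviations of -0.083 to 0.191, so the number was not taken as pairing. Of 1804 values of single probe sets under alternatives none that passed changed sign, 51 gained and 108 lost a call, and 68 that passed in neither setting changed sign. The causes were not tested. Probe sets below the array median, H2AX D and MACROH2A1 F and G, limit what their sizes show.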
